A study of Mus musculus with 6 samples.

Results

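The genes described here are 33 markers of T cells and cytotoxic lymphocytes, taken by symbol from a table of 18477 genes measured by RNA sequencing in mouse colon. They comprise the 4 CD3 chains of the T cell receptor complex, 3 coreceptor genes, 5 pan-T surface receptors, 3 signalling proteins that act next to the receptor, 8 helper and regulatory genes, 6 cytotoxic genes and 4 checkpoint receptors. All 33 were in the table, and 29 had enough reads to be tested. Ifng, Cd40lg, Prf1 and Eomes were too low for the test and are given as counts.

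The colons came from male C57BL/6 mice bought at 6 to 8 weeks of age and kept specific pathogen free. Every mouse here drank 2% dextran sulfate sodium (DSS), a polysaccharide that damages the colon epithelium and causes colitis, from day 8 to day 14. By daily gavage over 14 days, the DSS mice received phosphate-buffered saline and the DSS+BV mice received the gut bacterium *Bacteroides vulgatus* from the American Type Culture Collection in the same saline. The labels list 3 colon libraries for each group (DSS 1 to 3 and DSS+BV 1 to 3), taken here as 1 mouse each, and no library of untreated mice was analysed here. Nothing in the labels says that they came from separate animals, so p-values measure the spread between these libraries, which may be technical. The comparison asks which colon transcripts differ when *B. vulgatus* is given before and during DSS. Whole tissue was sequenced, so fewer T cells and less RNA per T cell cannot be told apart.

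T cells recognise antigen through a receptor that signals by way of the CD3 chains, and helper and cytotoxic T cells carry the coreceptors CD4 and CD8, respectively. Regulatory T cells, which hold back responses to gut bacteria, depend on the transcription factor FOXP3 and carry the interleukin 2 receptor alpha chain and CTLA4. The colon holds T cells in the lamina propria, between the epithelial cells, where many carry CD8 as a pair of alpha chains without the beta chain, and in lymphoid follicles together with B cells. Cytotoxic T cells and natural killer cells share granzymes, perforin and several receptors.

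The libraries held 15293276 to 17254343 expected counts, and the 33 genes together took between 0.00891% and 0.0243% of them. Levels are given as counts per 1000000 counts of the scaled library (CPM), in the order of mice 1, 2 and 3 of each group. A gene was called at an adjusted p under 0.05 with an absolute log2 fold change over 1 in the quasi-likelihood test of edgeR. Of 14579 tested genes, 0.0892% were called, all of them lower in DSS+BV, and none of the 29 tested T cell and cytotoxic genes was among them. Their smallest adjusted p in edgeR was 0.425, for Cd8a. At an unadjusted p under 0.05, 0 of the 29 passed, against 9.12% of all tested genes lower and 3.40% higher. DESeq2 called 2.07% of the genes it tested, and again 0 of the 29.

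The log2 fold change of DSS+BV against DSS was below 0 for 24 of the 29 genes and above 0 for 5, with a median of -0.47, beside -0.01 over all tested genes. This median depended on single mice. The summed level of the 33 genes was 137, 105 and 244 CPM in the DSS mice and 193, 91.9 and 94.1 CPM in the DSS+BV mice. DSS 3 was the highest of the 6 libraries for 23 of the 33 genes, and DSS+BV 1 was the highest for 5. DSS+BV 3 was the lowest for 12 genes, DSS+BV 2 for 9 and DSS 2 for 7. Without DSS 3 the median was 0.050, without DSS+BV 1 it was -1.21, and without both it was -0.83. Gene by gene, 0 of the 29 had all 3 DSS+BV mice below the lowest DSS mouse, against 11.3% of all tested genes. Only Cd8a was higher in every DSS+BV mouse, 1 of 29 against 6.37% of all tested genes.

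**Figure D1:**
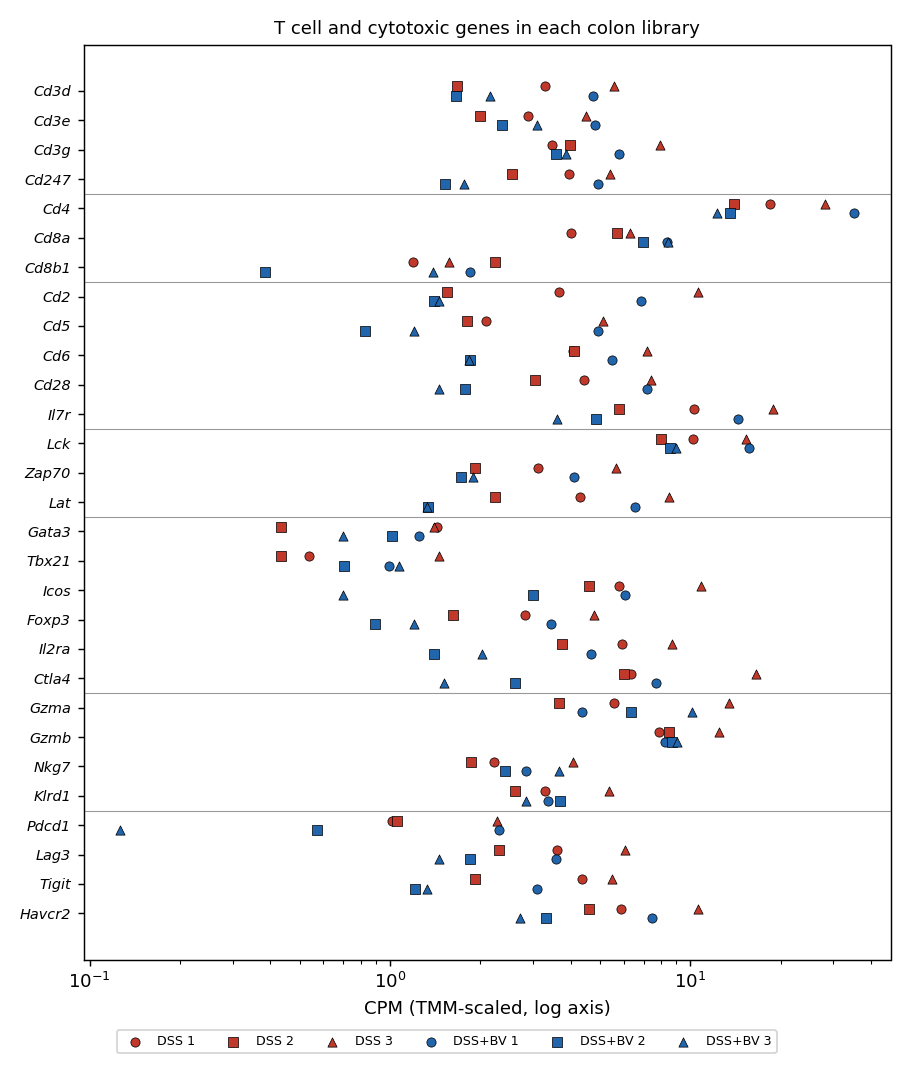
Level of the 29 tested genes in each library, as scaled CPM on a log axis, in 7 role groups separated by lines; red symbols are the 3 DSS mice and blue symbols the 3 DSS+BV mice, with a circle, square and triangle for mice 1, 2 and 3. DSS 3 and DSS+BV 1 lie to the right in most rows, and Cd8a is the row in which the groups do not overlap.

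The other cells of the tissue did not stay level between these mice. Markers of B cells, 9 of 9 tested, summed to 196, 18.0 and 316 CPM in the DSS mice and 297, 9.24 and 12.7 CPM in the DSS+BV mice. None of the 9 was called, and all 9 overlapped between groups. The most abundant of them was Cd79a, a chain of the B cell receptor complex, at 39.1, 4.48 and 66.9 CPM in DSS and 53.0, 1.91 and 2.66 CPM in DSS+BV. The libraries richest in T cell transcripts, DSS 3 and DSS+BV 1, were therefore also the richest in B cell transcripts. Markers of lymphoid tissue stroma followed a similar order, at 602, 261 and 1106 CPM in DSS and 480, 199 and 166 CPM in DSS+BV. Among them, Cxcl13, a chemokine that draws B cells into follicles, read 267, 54.3 and 482 CPM and 94.8, 31.7 and 35.2 CPM. Its log2 fold change was -2.31 ± 0.81 (SE, edgeR adjusted p = 0.358), its groups overlapped, and DESeq2 called it lower (adjusted p = 0.0447). Macrophage and monocyte markers summed to between 891 and 2064 CPM in DSS and between 568 and 1435 CPM in DSS+BV. Plasma cell markers summed to between 1016 and 1984 CPM in DSS and between 776 and 1471 CPM in DSS+BV. Smooth muscle markers lay at 3183 to 3915 CPM in DSS and 2297 to 3821 CPM in DSS+BV, and those of red blood cells at 212 to 432 CPM and 41.7 to 177 CPM, lower in each DSS+BV mouse. The part of these cells in the T cell values was not tested.

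**Figure D2:**
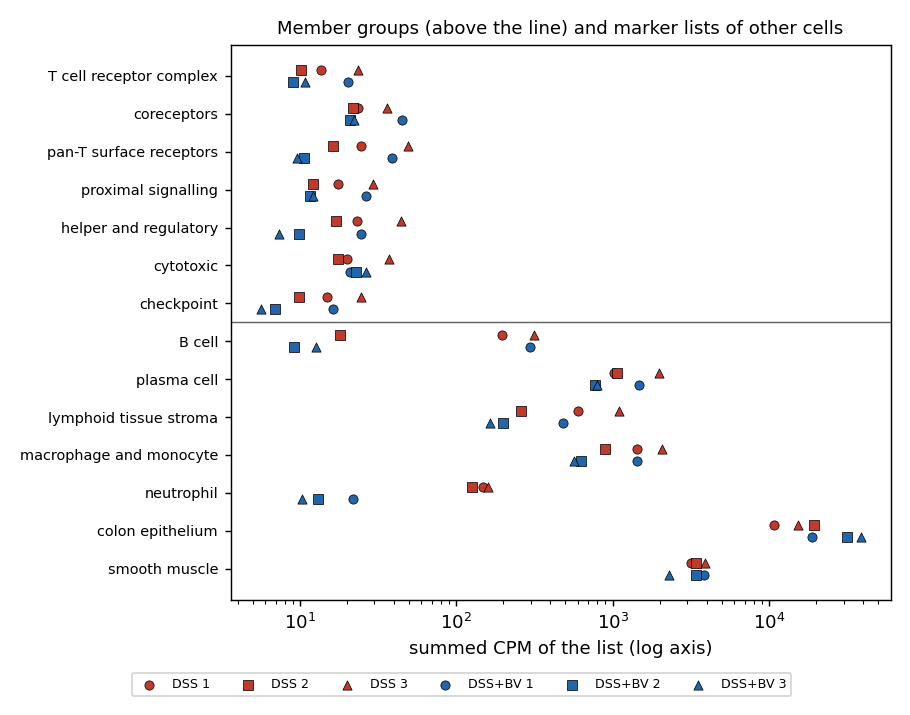
Summed CPM, on a log axis, of the 7 role groups of T cell and cytotoxic genes (above the line) and of 7 marker lists of other cells (below it), by library with the same symbols. DSS 3, DSS 1 and DSS+BV 1 hold the 3 highest values of the B cell list, from 196 to 316 CPM, while the neutrophil list separates the groups, at 126 to 160 CPM in DSS and 10.3 to 21.8 CPM in DSS+BV.

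Among the marker lists, edgeR called genes in the neutrophil list alone, whereas DESeq2 also called 1 stroma gene (Cxcl13) and 1 macrophage gene (Mrc1) lower and 2 epithelial genes (Car1 and Lgr5) higher. Although edgeR did not call them, 2 of 11 macrophage and monocyte genes (Mrc1 and Itgam) were lower in every DSS+BV mouse. Of the epithelial genes, 3 of 10 (Cdh1, Vil1 and Krt8) were higher in every DSS+BV mouse. Over all tested genes these shares were 11.3% lower and 6.37% higher. Lgr5, Itgam, Cdh1, Vil1 and Krt8 are named after their values were seen. Of 6 neutrophil genes measured, 5 were called lower by edgeR in DSS+BV, against 0.0892% of all tested genes called. All 6 were lower in every DSS+BV mouse, against 11.3% of all tested genes. S100a9, a subunit of the neutrophil protein calprotectin, read 40.4, 36.5 and 55.1 CPM in DSS and 3.10, 2.48 and 1.64 CPM in DSS+BV. The T cell genes thus did not share the order of the neutrophil genes, which put all DSS+BV mice below all DSS mice. Colon epithelium markers summed to between 10744 and 19332 CPM in DSS and between 18872 and 38470 CPM in DSS+BV, overlapping between DSS 2 and DSS+BV 1. Muc2, the mucin of goblet cells, was the most abundant of them, so the libraries carried the epithelium that their tissue label implies.

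The 4 CD3 chains showed no separation of the groups. Cd3e, the epsilon chain, read 2.87, 1.99 and 4.48 CPM in DSS and 4.82, 2.36 and 3.10 CPM in DSS+BV, and Cd3g, the gamma chain, 3.47, 3.98 and 7.92 CPM and 5.80, 3.57 and 3.86 CPM. In both, DSS 3 and DSS+BV 1 were the high mice. Cd3d, the delta chain, read 3.29, 1.68 and 5.59 CPM and 4.75, 1.66 and 2.15 CPM, with the same mice high. Cd247, the zeta chain that carries most of the signalling motifs, read 3.95, 2.55 and 5.42 CPM and 4.95, 1.53 and 1.77 CPM. Their log2 fold changes ran from -0.53 ± 0.54 (SE) for Cd247 to 0.13 ± 0.42 (SE) for Cd3e, and 0 of 4 were called. The genes of the delta, epsilon and gamma chains lie side by side on chromosome 9 (RefSeq positions on GRCm38.p6), within chr9:44969572-45009663. Reads of the Cd247 span could include those of Pou2f1 and of unnamed transcripts annotated on the opposite strand there, since the use of strand in the counting is not given in the sources used here. An unnamed transcript is also annotated there on the strand of Cd247, so reads may be shared whatever the counting did with strand. The deposited counts of Cd247 were whole numbers, so they show no read split with another gene. Whether the annotation used held the overlapping transcripts is not given in the sources used here.

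The log2 fold changes of the coreceptors differed in sign, and 0 of 3 were called. Cd4 (chr6:124864693-124888247) was at 18.4, 14.1 and 28.1 CPM in the DSS mice and 35.1, 13.6 and 12.3 CPM in the DSS+BV mice. DSS+BV 1 was the highest of all 6 and the other DSS+BV mice were the lowest, so that the log2 fold change of 0.0080 ± 0.47 (SE) averaged values on both sides of the DSS range. CD4 is also found on some macrophages and dendritic cells, so its reads in whole tissue need not all be those of helper T cells.

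Cd8a (chr6:71373427-71379171), the CD8 alpha chain, read 4.01, 5.72 and 6.29 CPM in DSS and 8.38, 6.94 and 8.41 CPM in DSS+BV. Every DSS+BV mouse lay above every DSS mouse, although by little between DSS 3 and DSS+BV 2. The mean of the DSS mice was 5.34 ± 1.19 CPM and that of the DSS+BV mice 7.91 ± 0.837 CPM (SD, n = 3 each). The log2 fold change of 0.57 ± 0.25 (SE) was not called by edgeR (adjusted p = 0.425). It stayed between 0.40 and 0.70 with any 1 library left out. Cd8b1 (chr6:71322788-71337492), the beta chain encoded next to it, read 1.20, 2.24 and 1.57 CPM and 1.85, 0.382 and 1.39 CPM, with a log2 fold change of -0.47 ± 0.58 (SE). Its groups overlapped, and DSS+BV 2, with 6 reads, stood below the others. The ratio of Cd8b1 to Cd8a counts was 0.299, 0.391 and 0.250 in the DSS mice and 0.220, 0.0550 and 0.165 in the DSS+BV mice. It was lower in every DSS+BV mouse (exact two-sided permutation p = 0.1, the smallest that 3 against 3 mice allow, adjusted p = 0.44 over the 11 ratios computed). The ratio of Cd8a to Cd4 was 0.218, 0.407 and 0.224 in DSS and 0.239, 0.512 and 0.682 in DSS+BV, with overlapping groups.

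The pan-T surface receptors differed widely between mice of the same group. Cd2, an adhesion receptor that helps T cells hold to antigen-presenting cells, read 3.65, 1.55 and 10.6 CPM in DSS and 6.86, 1.40 and 1.45 CPM in DSS+BV. Il7r, the receptor for the survival cytokine interleukin 7, read 10.3, 5.78 and 18.8 CPM and 14.4, 4.84 and 3.60 CPM. In both genes DSS 3 was highest, DSS+BV 1 next, and DSS+BV 2 and 3 lowest. Cd28, which gives the costimulatory signal, read 4.43, 3.05 and 7.40 CPM and 7.19, 1.78 and 1.45 CPM. Cd5, which dampens receptor signalling, read 2.10, 1.80 and 5.12 CPM and 4.95, 0.828 and 1.20 CPM. Cd6, a receptor related to CD5, read 4.07, 4.10 and 7.16 CPM and 5.47, 1.85 and 1.83 CPM. All 5 had a log2 fold change below 0, from -0.74 ± 0.52 (SE) for Cd6 to -0.37 ± 0.76 (SE) for Cd5, and 0 of 5 were called. For Cd2 the value went from -1.88 without DSS+BV 1 to 0.31 without DSS 3, the widest range among the 5.

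All 3 signalling genes overlapped between groups and 0 of 3 were called. Lck, the kinase that starts T cell receptor signalling, read 10.2, 8.02 and 15.3 CPM in DSS and 15.8, 8.54 and 8.98 CPM in DSS+BV, a log2 fold change of -0.013 ± 0.35 (SE). Lat, the membrane scaffold on which the signal assembles, read 4.31, 2.24 and 8.50 CPM and 6.53, 1.34 and 1.33 CPM, or -0.71 ± 0.77 (SE). DSS+BV 2 and 3 sat within the DSS range for Lck and below it for Lat. Zap70, the kinase that binds phosphorylated CD3 chains, read 3.11, 1.93 and 5.65 CPM and 4.09, 1.72 and 1.90 CPM, with overlapping groups.

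The helper and regulatory genes held 3 of the 4 log2 fold changes beyond -1. Il2ra, the interleukin 2 receptor alpha chain, read 5.93, 3.73 and 8.68 CPM in DSS and 4.68, 1.40 and 2.02 CPM in DSS+BV, a log2 fold change of -1.18 ± 0.53 (SE, edgeR adjusted p = 0.428). DSS+BV 1 exceeded only DSS 2, and the other DSS+BV mice were below all DSS mice. Ctla4, an inhibitory receptor that competes with CD28 for its ligands, read 6.35, 6.03 and 16.6 CPM and 7.72, 2.61 and 1.52 CPM, with -1.29 ± 0.69 (SE, edgeR adjusted p = 0.493). Here DSS+BV 1 was above DSS 1 and 2, and the lowest values were again DSS+BV 2 and 3. Icos, a costimulatory receptor of activated and follicular helper T cells, read 5.81, 4.60 and 10.8 CPM and 6.07, 2.99 and 0.695 CPM, with -1.12 ± 0.72 (SE, edgeR adjusted p = 0.556). Its low mouse was DSS+BV 3. Foxp3, the master factor of regulatory T cells, read 2.81, 1.62 and 4.78 CPM and 3.43, 0.892 and 1.20 CPM, with -0.74 ± 0.63 (SE). Every one of these 4 stayed below 0 with any 1 library left out, with a highest value of -0.84 for Il2ra, -0.65 for Ctla4, -0.64 for Icos and -0.27 for Foxp3. This was not particular to them, as all 4 checkpoint receptors, among other genes, also stayed below 0. With DSS 3 and DSS+BV 1 both left out, a setting chosen after the data were seen, Ctla4 was at -1.57 ± 0.39 (SE, edgeR adjusted p = 0.357) and Il2ra at -1.49 ± 0.42 (SE, edgeR adjusted p = 0.376).

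Cd28, Ctla4 and Icos are neighbours on chromosome 1 (chr1:60746388-60773359, chr1:60909025-60915832 and chr1:60960773-61000322). Foxp3 overlaps Ppp1r3f and Ccdc22 on the opposite strand and the transcript Flicr on its own strand, so its reads carry the same limits as those of Cd247. Other genes are also annotated on the same strand over Ctla4, Il2ra, Icos, Cd3e, Lck, Lat and Ifng. On the opposite strand this holds for Cd3e, Zap70 and Eomes. The reads of all these genes carry such limits too. The ratio of Foxp3 to Cd3e counts was 0.979, 0.813 and 1.06 in DSS and 0.712, 0.378 and 0.388 in DSS+BV. It was lower in every DSS+BV mouse (exact two-sided permutation p = 0.1, the smallest possible, adjusted p = 0.44 over 11 ratios). The ratio of Ctla4 to Foxp3 overlapped, at 2.26, 3.73 and 3.48 in DSS and 2.25, 2.93 and 1.26 in DSS+BV.

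The factors that set helper T cell type had few reads. Gata3, of type 2 helper cells and innate lymphoid cells, read 1.44, 0.435 and 1.40 CPM in DSS and 1.25, 1.02 and 0.695 CPM in DSS+BV, and other genes are annotated over it on both strands, so that reads there may be shared whatever the counting did with strand. Tbx21, which encodes T-bet of type 1 helper cells, read 0.539, 0.435 and 1.46 CPM and 0.989, 0.701 and 1.07 CPM, and both overlapped between groups. Ifng, the type 1 cytokine interferon gamma, had 4, 2 and 3 reads in DSS and 0, 2 and 2 in DSS+BV, too few for a comparison. Cd40lg, the ligand by which helper T cells activate B cells, had 2, 1 and 6 reads and 9, 2 and 0 reads.

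All 4 tested cytotoxic genes overlapped between groups, and each was highest in DSS 3. Gzma, which encodes the protease granzyme A, read 5.57, 3.67 and 13.5 CPM in DSS and 4.35, 6.37 and 10.1 CPM in DSS+BV. DSS+BV 1, high for most T cell genes, was the lowest DSS+BV mouse here, while DSS 3 remained the highest of all. Gzmb, granzyme B, varied least of the tested cytotoxic genes, at 7.90, 8.52 and 12.5 CPM and 8.24, 8.73 and 9.04 CPM, with a log2 fold change of -0.15 ± 0.24 (SE). Nkg7, a granule membrane protein, read 2.22, 1.87 and 4.08 CPM and 2.84, 2.42 and 3.67 CPM, and Klrd1, the CD94 receptor of natural killer and some T cells, 3.29, 2.61 and 5.36 CPM and 3.36, 3.70 and 2.85 CPM. The log2 fold changes of these 4 ran from -0.19 ± 0.34 (SE) to 0.13 ± 0.39 (SE), and 0 were called. Prf1, the pore-forming perforin, had 9, 6 and 20 reads in DSS and 15, 5 and 2 in DSS+BV. Eomes, a factor of cytotoxic lymphocytes, had 7, 7 and 8 reads in DSS and 17, 20 and 10 in DSS+BV, or 0.419, 0.435 and 0.466 CPM against 1.12, 1.27 and 0.632 CPM. The groups did not overlap, but the counts lay below the filter of the edgeR test, and DESeq2, which kept the gene, gave an adjusted p of 0.387.

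The checkpoint receptors, which restrain activated T cells, all had log2 fold changes below 0, and 0 of 4 were called. Tigit read 4.37, 1.93 and 5.47 CPM in DSS and 3.10, 1.21 and 1.33 CPM in DSS+BV, a log2 fold change of -1.06 ± 0.54 (SE, edgeR adjusted p = 0.470). Lag3, which binds major histocompatibility complex class II, read 3.59, 2.30 and 6.06 CPM and 3.56, 1.85 and 1.45 CPM, with -0.80 ± 0.50 (SE). In both genes DSS 3 was highest, and DSS+BV 2 and 3 were below every DSS mouse. Havcr2, the receptor TIM-3 that macrophages and dendritic cells also carry, read 5.87, 4.60 and 10.7 CPM and 7.45, 3.31 and 2.72 CPM. Pdcd1, the receptor PD-1, read 1.02, 1.06 and 2.27 CPM and 2.31, 0.573 and 0.126 CPM, with DSS+BV 1 the highest and DSS+BV 3 the lowest. Its log2 fold change of -0.53 ± 0.89 (SE) went from -2.02 without DSS+BV 1 to -0.0074 without DSS+BV 3.

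**Figure D3:**
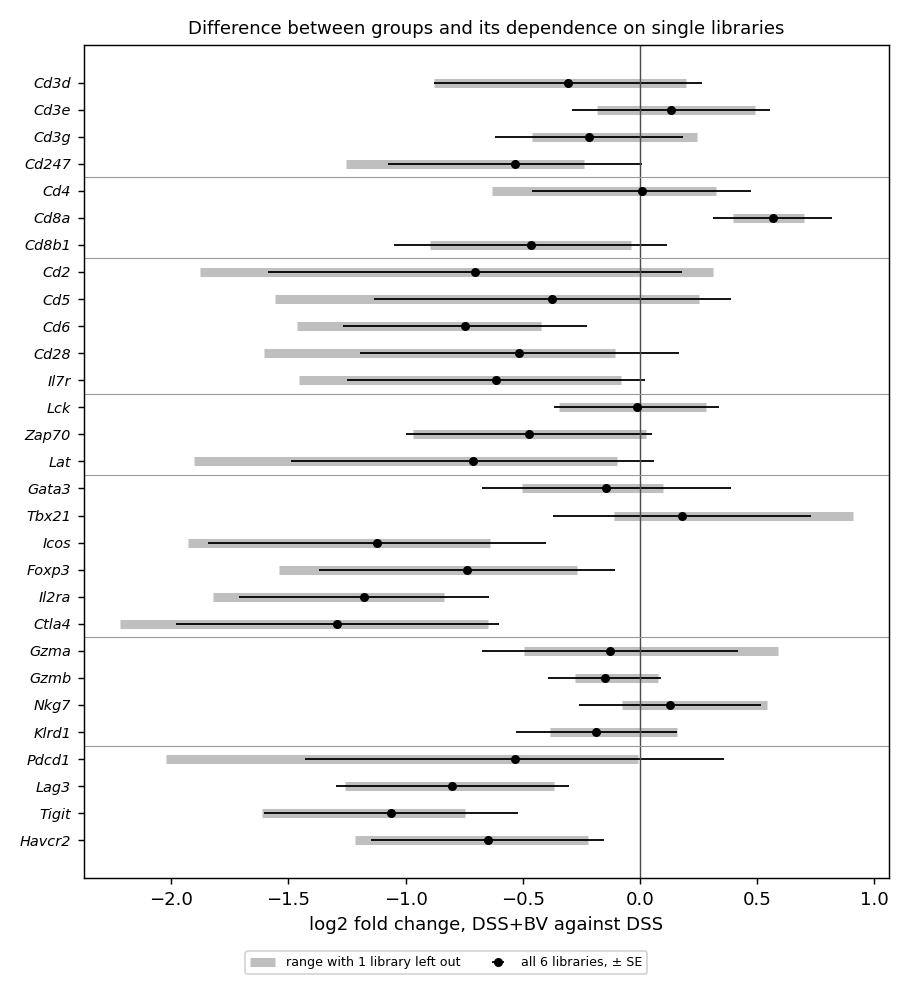
Log2 fold change of DSS+BV against DSS for the 29 tested genes; points and thin lines are the value and SE with all 6 libraries, and grey bars span the values with 1 library left out at a time. The bars of Ctla4, Il2ra, Icos and Tigit stay left of 0 and that of Cd8a stays right of 0. Those of Foxp3, Lag3, Havcr2, Pdcd1, Cd6, Cd28, Il7r, Lat, Cd247 and Cd8b1 also stay left of 0. The bars of the other genes, Cd2, Cd5 and Gzma among them, cross it.

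Il2ra, Ctla4 and Tigit had log2 fold changes beyond -1 with overlapping groups, and Cd8a had groups that did not overlap. None of them was called. Their proximal promoters are printed from RefSeq on GRCm38.p6, to set the sequence beside these values. Each runs 5′ to 3′ on the strand of the gene, from 250 bases before a transcription start site to 50 bases after it. Core motifs of factors known in T cells were searched on both strands by their letters alone, namely TGTGGT for RUNX, TGGAAA for NFAT, TGTTTAC for forkhead factors and AGATAA for GATA factors. Matches are in capitals, and none of the matches shown overlapped another. Icos and Cd8b1 are named only.

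Il2ra, chr2:11642542-11642841, plus strand: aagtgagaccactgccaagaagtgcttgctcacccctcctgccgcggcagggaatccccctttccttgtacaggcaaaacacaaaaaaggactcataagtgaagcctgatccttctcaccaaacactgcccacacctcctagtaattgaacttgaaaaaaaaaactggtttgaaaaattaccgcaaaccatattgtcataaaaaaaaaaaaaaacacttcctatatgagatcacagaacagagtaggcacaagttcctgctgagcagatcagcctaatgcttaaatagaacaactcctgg
Ctla4, chr1:60908775-60909074, plus strand: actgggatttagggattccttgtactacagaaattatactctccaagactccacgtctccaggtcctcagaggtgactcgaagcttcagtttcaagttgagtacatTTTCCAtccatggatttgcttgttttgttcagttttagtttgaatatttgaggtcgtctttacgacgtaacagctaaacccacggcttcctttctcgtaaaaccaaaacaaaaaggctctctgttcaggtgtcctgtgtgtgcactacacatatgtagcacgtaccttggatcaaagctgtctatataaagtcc
Tigit, chr16:43664135-43664434, minus strand: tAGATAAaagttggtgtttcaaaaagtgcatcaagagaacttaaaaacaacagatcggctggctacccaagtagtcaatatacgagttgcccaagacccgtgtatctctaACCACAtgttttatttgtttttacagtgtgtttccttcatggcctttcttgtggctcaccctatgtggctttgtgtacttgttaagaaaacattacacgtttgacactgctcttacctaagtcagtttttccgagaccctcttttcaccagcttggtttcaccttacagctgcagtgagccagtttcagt
Cd8a, chr6:71373177-71373476, plus strand: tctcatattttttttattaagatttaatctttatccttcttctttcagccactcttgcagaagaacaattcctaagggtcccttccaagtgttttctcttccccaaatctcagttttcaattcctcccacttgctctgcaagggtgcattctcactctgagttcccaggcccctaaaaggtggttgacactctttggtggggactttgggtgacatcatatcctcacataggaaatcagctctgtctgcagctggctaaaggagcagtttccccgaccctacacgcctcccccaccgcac

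Positions are counted from the start site, with negative numbers before it. The Ctla4 window held the NFAT letters on the opposite strand from position -144. The Tigit window held the GATA letters from position -249 and, on the opposite strand, the RUNX letters from position -140. This window lies inside the span of the gene, chr16:43626137-43665125, so its start site is an internal one. None of the 4 motifs was found in the Il2ra and Cd8a windows. Promoters were matched for 24 of the 33 genes, 28 windows in all. RUNX letters were in 10 of the 28 (35.7%), against 16.8% of all 32851 RefSeq promoter windows, and NFAT letters in 8 (28.6%), against 21.4%. GATA letters were in 3 (10.7%), against 11.2%, and forkhead letters in 0, against 3.65%. A match in these letters is not a measured binding site.

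Per kilobase of exon, which allows levels of different genes to be compared, the granzymes and Cd4 were the most abundant in both groups. In DSS, Gzma was first at 7.54 ± 5.19 CPM per kb (SD, n = 3), followed by Gzmb at 6.70 ± 1.72 and Cd4 at 6.50 ± 2.32 CPM per kb. In DSS+BV, Gzma stood at 6.91 ± 2.91, Cd4 at 6.54 ± 4.12 and Gzmb at 6.04 ± 0.279 CPM per kb. These neighbours differed by less than the spread between mice, and so their order is not resolved. Ctla4 was 5th of 33 in DSS, at 4.996 ± 3.11 CPM per kb, and 14th in DSS+BV, at 2.04 ± 1.71 CPM per kb. Cd8a was 18th in DSS, at 1.71 ± 0.378 CPM per kb, and 9th in DSS+BV, at 2.53 ± 0.267 CPM per kb. Ctla4 and Cd8a also had neighbours within the spread between mice, so their ranks are not resolved either.

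Since the level of T cell transcripts varied between libraries, each gene was also divided by the geometric mean of the 4 CD3 chain counts of its library, an alternative chosen after the data were seen. This ratio does not depend on the scaling of libraries. Of the 25 tested genes that are not CD3 chains, 7 (28%) had all 3 DSS+BV mice below the lowest DSS mouse, against 5.16% of all tested genes, and 0 were higher, against 0.364%. These 7 were Il2ra, Ctla4, Icos, Tigit, Lag3, Havcr2 and Cd6. The CD3 divisor ran from 33.7 to 98.3 counts, which adds spread to genes that do not vary with it. In CPM the shares over all tested genes were 11.3% lower and 6.37% higher, so the shares on this scale are not a like baseline for T cell genes. Il2ra stood at 1.76, 1.55 and 1.52 per CD3 chain count in DSS and 0.925, 0.652 and 0.779 in DSS+BV, with means of 1.61 ± 0.131 and 0.786 ± 0.136 (SD, n = 3 each). Ctla4 stood at 1.88, 2.50 and 2.90 in DSS and 1.52, 1.22 and 0.584 in DSS+BV. For the 7 genes, the mice rich in T cell transcripts, DSS 3 and DSS+BV 1, kept to their groups by selection, since the 7 were picked by this separation. Tigit stood at 1.29, 0.799 and 0.956 in DSS and 0.612, 0.563 and 0.511 in DSS+BV. Icos stood at 1.72, 1.91 and 1.89 in DSS and 1.20, 1.39 and 0.268 in DSS+BV. Foxp3 was not among the 7, because DSS 2 at 0.670 was below DSS+BV 1 at 0.678.

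**Figure D4:**
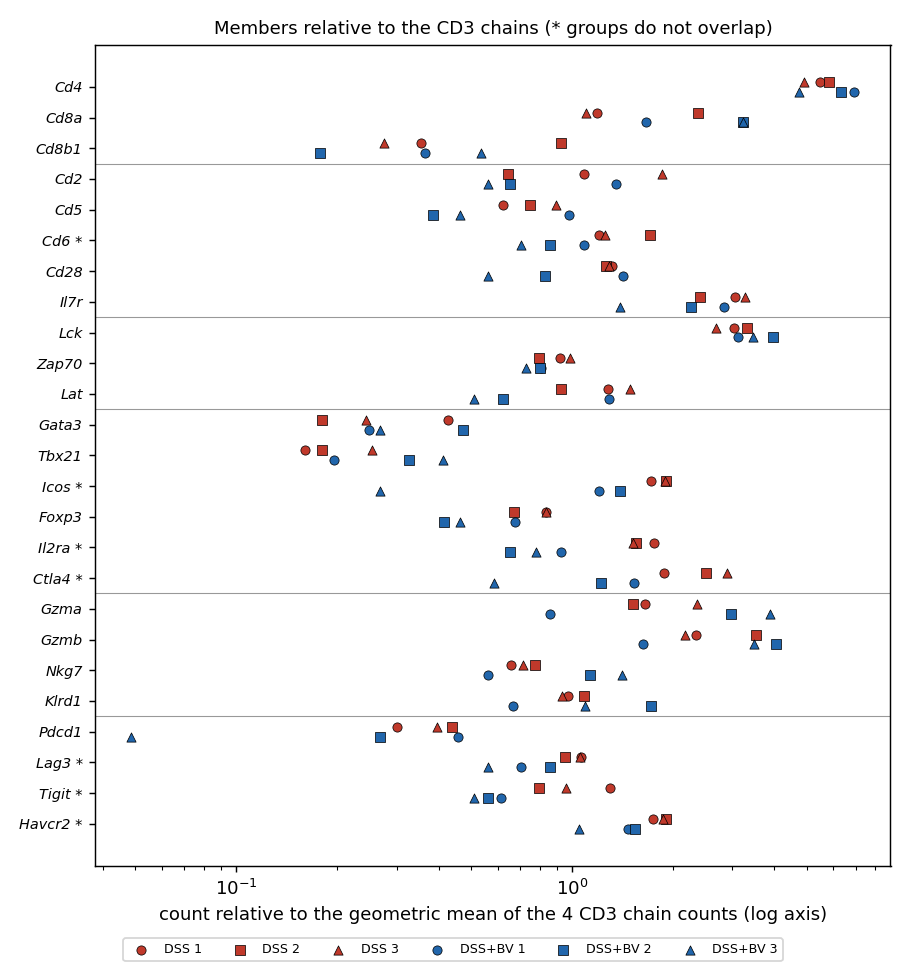
Count of 25 tested genes relative to the geometric mean of the 4 CD3 chain counts of the same library, on a log axis, with the same symbols; an asterisk marks the 7 genes whose groups do not overlap. Il2ra is at 1.52 to 1.76 in DSS and 0.652 to 0.925 in DSS+BV, while Cd4, Lck, Gzma and Gzmb overlap.

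The other 18 tested genes overlapped on this scale. Eomes, which was too low for the edgeR test, was higher in every DSS+BV mouse, at 0.124, 0.180 and 0.0814 in DSS and 0.222, 0.593 and 0.243 in DSS+BV. Lck stood at 3.03, 3.32 and 2.67 in DSS and 3.11, 3.97 and 3.46 in DSS+BV, and Zap70 at 0.922, 0.799 and 0.986 and 0.808, 0.801 and 0.730. Gzma spread widely within DSS+BV, at 0.860, 2.97 and 3.90, around DSS values of 1.65, 1.52 and 2.36. The choice of divisor mattered. The lower genes numbered 10 of 25 with Cd3e alone as divisor, against 12.1% of all tested genes, and 7 with Lck, against 10.5%. They numbered 7 with the summed CD3 count, against 5.60%, and 0 with Ptprc, the pan-leukocyte phosphatase CD45, against 1.17%. The 25 include Lck, whose ratio to itself cannot differ between groups. Cd3e had the highest log2 fold change of the CD3 chains, 0.13 ± 0.42 (SE), so group differences in ratios to it come out lower. Ptprc itself read 113, 55.0 and 158 CPM in DSS and 149, 41.2 and 36.5 CPM in DSS+BV, and it was lowest in DSS+BV 2 and 3. The ratio of Cd3e to Ptprc was 0.0255, 0.0362 and 0.0284 in DSS and 0.0324, 0.0572 and 0.0848 in DSS+BV, with overlapping groups. Without DSS+BV 1 the lower genes numbered 13 of 25, against 6.51% of all tested genes, and the higher genes 6, against 28.7%. Without any other library the lower genes numbered 7 to 10, against 6.16% to 9.96%.

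A wider list of 56 genes of T cell signalling, helper T cells and cytotoxic cells, of which 54 were in the table and 43 were tested, gave 0 calls. Of the 43, 30 had a log2 fold change below 0 and 13 above it, with a median of -0.42. In the signalling and identity list, 17 of 23 were below 0, in the helper and regulatory list 7 of 10, and in the cytotoxic and natural killer list 6 of 10. Bcl11b, a factor needed for T cell identity, was the 1 gene of the 43 whose groups did not overlap, where the shares over all tested genes were 11.3% lower and 6.37% higher. Its level was 16.2, 13.3 and 9.67 CPM in DSS and 19.2, 20.7 and 20.5 CPM in DSS+BV, with 0.63 ± 0.22 (SE, edgeR adjusted p = 0.359). Its order of mice was not that of the CD3 chains, since DSS 3 was the lowest.

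Ccr7, the receptor that guides naive T cells and dendritic cells to lymphoid tissue, read 20.1, 5.28 and 33.4 CPM in DSS and 14.9, 3.89 and 1.90 CPM in DSS+BV, with DSS 3 the highest. Prkcq, the kinase PKC theta of T cell activation, read 4.49, 5.78 and 6.87 CPM and 5.01, 2.23 and 3.67 CPM. Tnfrsf4, the costimulatory receptor OX40, read 1.98, 1.55 and 4.89 CPM and 1.65, 1.02 and 0.695 CPM, with a log2 fold change of -1.32 ± 0.57 (SE, edgeR adjusted p = 0.407). DSS+BV 1 lay between DSS 2 and DSS 1 for Tnfrsf4, as it did for Il2ra. Ikzf2, the factor Helios found in regulatory T cells of thymic origin and in other cells, read 16.3, 5.72 and 13.9 CPM and 15.8, 26.6 and 21.4 CPM, opposite to Foxp3 in sign. Bcl6, the factor of follicular helper T cells and germinal centre B cells, read 23.4, 20.3 and 42.4 CPM and 24.0, 17.5 and 14.8 CPM. The natural killer receptors Klrc1, Klrb1c and Klrk1 overlapped between groups, with log2 fold changes of -0.42 ± 0.46, -0.46 ± 0.55 and -0.45 ± 0.65 (SE).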

How the data were processed

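Total RNA was extracted from colon tissue for 3 DSS and 3 DSS+BV libraries, prepared with the SMARTER mRNA-Seq kit and sequenced on a DNBSEQ-T7. The authors quantified genes with RSEM and deposited the expected counts, unscaled. The submitters' processing notes name HISAT2 2.1.0, Bowtie2 2.2.5, RSEM 1.2.8 and GRCm38.p6. The annotation used is not given in the sources used here. Values that are not whole, as RSEM gives for shared reads, were present for 1573 genes and for none of the 33 genes described.

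After rounding of the expected counts, low genes were removed with filterByExpr (minimum count 10, minimum total 15) and TMM factors were computed. DSS+BV was set against DSS by edgeR (version 4.0.16, R 4.3.3) with its quasi-likelihood F test, and p-values were adjusted by the Benjamini-Hochberg method over all 14579 genes that passed. The biological coefficient of variation was 32.1%. The SE is the absolute log2 fold change divided by the square root of F. DESeq2 1.42.0, RLE and upper-quartile factors, no filter, a replicate block and leaving out libraries were alternatives. Ratios of counts between genes were compared by exact permutation. Exon lengths per gene were unions of GENCODE M21 exons, positions and promoters were from RefSeq, and plots used matplotlib 3.10.9 (Python 3.11.15).

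All 33 members were named, with, from each wider list, the 3 genes of smallest unadjusted p and, from each marker list, genes chosen by highest mean or smallest p. Ptprc was named because the ratios turn on it. The members and lists were chosen with earlier results of these data known. Cd244, Trdc and Fdcsp, on these lists, were not analysed here. The labels give 3 libraries per group, and no 2 libraries of a group agreed within sampling noise.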

Additional observations from a re-analysis of the deposited data

How the results depend on the processing

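The number of T cell and cytotoxic genes called was 0 in every alternative run, namely RLE or upper-quartile factors, no filter, DESeq2, an adjusted p alone, the replicate block and each library left out. Their median log2 fold change was -0.47, -0.53 with upper-quartile factors and -0.45 with DESeq2, and it lay between -1.21 (DSS+BV 1 left out) and 0.050 (DSS 3 left out). Same-numbered libraries correlated at 0.27, 0.25 and -0.30 in their deviations from the group means. With 3 libraries a group, these values cannot show whether the replicate numbers pair the mice. With the replicate block the median was -0.64 and the log2 fold change of Cd4 was -0.098. Cd4 was at -0.046 with upper-quartile factors, and Lck was at 0.014 without the filter and 0.0062 with DESeq2. Both were near 0 under the settings of the report, at 0.0080 and -0.013.

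With 1 library left out, 14 genes took both signs. Their log2 fold changes ran from -0.63 to 0.32 for Cd4, -0.34 to 0.28 for Lck, -0.49 to 0.59 for Gzma, -0.38 to 0.16 for Klrd1, -0.46 to 0.24 for Cd3g, -1.56 to 0.25 for Cd5, -1.88 to 0.31 for Cd2, -0.18 to 0.49 for Cd3e, -0.97 to 0.025 for Zap70, -0.50 to 0.10 for Gata3, -0.28 to 0.079 for Gzmb, -0.11 to 0.91 for Tbx21, -0.075 to 0.54 for Nkg7 and -0.88 to 0.19 for Cd3d. Genes whose groups did not overlap numbered 0 to 17 lower and 1 to 3 higher. The 17 of 29 (58.6%) were without DSS+BV 1, where the share over all tested genes was 21.3%, and the 3 of 29 (10.3%) without DSS 3, where it was 8.52%. Ratios that did not overlap numbered 2 to 7 of the 11 computed. The 7 were without DSS+BV 1, where fewer mice are compared and separation is reached more easily, and no share over other pairs of genes was computed. Relative to the CD3 chains, 7 to 13 genes were lower and 0 to 6 higher. The 13 (52.0%) and the 6 (24.0%) were without DSS+BV 1, where the shares over all tested genes were 6.51% and 28.7%, and with Ptprc as divisor 0 were lower. The cause of these changes was not tested. With 3 libraries a group, 4 genes were too low for the test.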
